A study of Mus musculus with 28 samples.

Results

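The comparison concerns 14 mouse plasma cell tumors that grew after adoptive transfer of premalignant B cells, set against 3 samples of normal B cells from the spleen, out of 28 samples in the series. The tumors were chosen by their sample titles. Each came from an oil granuloma, the inflamed tissue that forms around injected oil, was ground whole, and came from mice of strain C.iMyc/IL-6, which has a BALB/c background, aged 105 to 158 days. The strain name joins an inserted Myc gene with an IL-6 transgene. The labels give neither the promoters that drive them, nor the genotype of the recipient mice, nor how many donors the cells came from. The normal samples carry the BALB/c label with no transgene and an age of 90 days. A further 11 samples were spontaneous C.iMyc/IL-6 tumors of lymph nodes, from mice aged 40 to 162 days. They shared the fit and were compared with the adoptive-transfer tumors once.

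A resting B cell of the spleen circulates, crawls, reads chemical cues through G protein coupled receptors and waits in a quiescent state. A plasma cell has shut down most of that machinery and makes antibody in bulk. A plasma cell tumor keeps the secretory state and divides. The account here turns to functions that lie apart from antibody secretion, the cell cycle and the supporting tissue: signalling, small-molecule metabolism, metal handling, and RNA and chromatin control.

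RNA was measured on Illumina bead arrays, and a level here is a background-corrected, quantile-normalised log2 intensity of a gene's brightest probe. Between 11544 and 16827 probes were detected in each tumor, and between 15633 and 16866 in each normal sample. The group labels were checked against cell type markers. The mean level of 4 B cell markers was 6.12 to 6.81 in the tumors and 10.7 to 10.9 in normal B cells, and Pax5 and Cr2 were detected in no tumor. The mean of 7 plasma cell markers had a median of 9.42 in the tumors, against 7.81 to 8.05 in normal B cells. Fibroblast markers averaged 5.80 to 9.33 in the tumors and 4.84 to 4.88 in normal B cells, with 7 of 8 undetected in every normal sample, so the tumors were mixed tissue. In such bulk RNA, fewer cells of a type and less RNA per cell cannot be told apart.

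**Figure D1:**
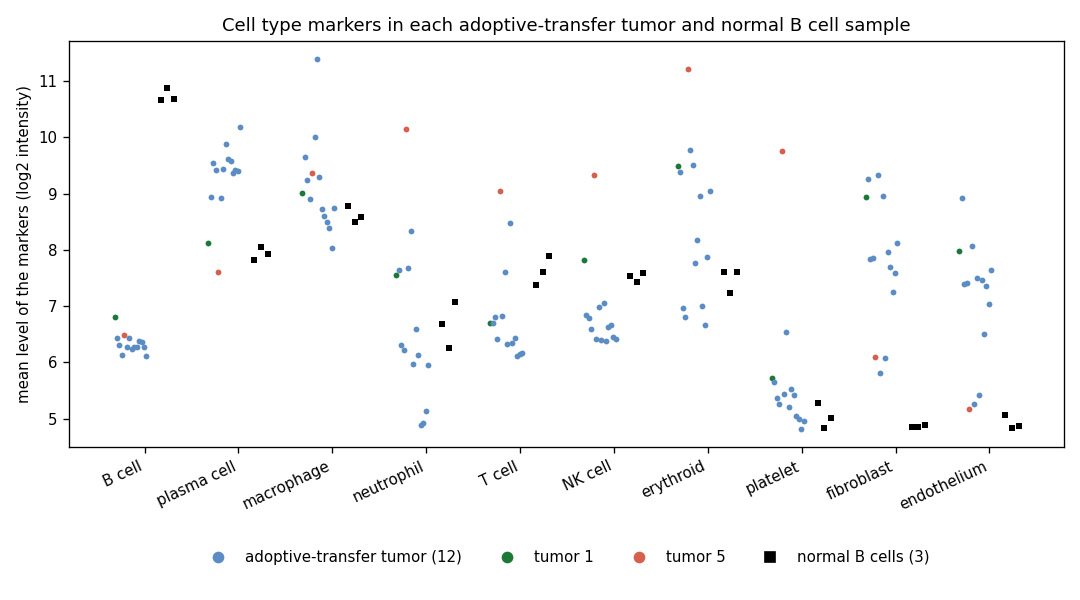
Mean log2 intensity of marker genes for 10 cell types, with each of the 14 adoptive-transfer tumors as a circle and each of the 3 normal B cell samples as a black square to their right. Tumor 5 lay at 7.60 for plasma cell markers, below the normal samples, and at 9.76 for platelet markers and 10.1 for neutrophil markers, above every other array shown.

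Tumors 1 and 5 stood apart from the other 12. Their arrays also had the fewest probes detected of all 28, 11544 and 13669, against 14868 or more in the other 12. The median correlation with the other tumors over all genes tested was 0.816 for tumor 1 and 0.772 for tumor 5, and 0.907 to 0.950 for the rest. Plasma cell markers averaged 7.60 in tumor 5, below all 3 normal samples, while its erythroid markers averaged 11.2 and its T cell markers 9.04, the highest of the 14 tumors. Tumor 5 also lay nearest to the normal samples across the calls described next: it was the highest tumor for 46.7% of the genes called lower and the lowest for 50.1% of those called higher. The part of these markers and of the fewer detected probes in the results was not tested. A list's count is also given without tumors 1 and 5, or without tumor 5, where it moves by over 1.5 times and by more than 1 gene.

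Among 11804 genes tested, 36.5% differed between the tumors and normal B cells at an adjusted p under 0.05 (limma, Benjamini-Hochberg): 2343 genes (19.8%) were higher and 1968 (16.7%) lower in the tumors. The log2 fold change was at least 1 in size for 1710 of the higher and 1313 of the lower genes. For 1109 genes called higher (9.4% of those tested) every tumor lay above every normal sample, and for 1115 called lower (9.45%) every tumor lay below. Without tumors 1 and 5 the calls numbered 5425. The median log2 fold change of all genes was 0.105, and the median SD of a gene was 0.503 across the tumors and 0.151 across the normal samples. With arrays scaled to a common median in place of quantile normalisation, the higher genes made up 33.3% of calls in place of 54.3% and the median over all genes moved to -0.0758, so shifts of a gene group near these sizes have no settled direction.

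The tumors and the normal samples also differed in sex-linked transcripts. Xist, the RNA that coats the inactive X chromosome, had levels of 9.12 to 11.9 in the tumors and was detected in no normal sample. Eif2s3y, a Y-linked translation factor gene, was detected in no tumor and stood at 9.04, 8.94 and 8.93 in normal B cells. Sex-linked transcripts, tissue, cell kind, the transgenes of the strain label and age thus coincide with the groups and cannot be told apart. A fit with Eif2s3y as a covariate, which draws on the spontaneous tumors that have it, left 1949 calls, 1009 higher and 940 lower. Under median scaling 1397 of all genes were higher and 2794 lower, and without tumors 1 and 5, 3022 and 2403. Leaving out tumor 5 alone gave 2750 higher and 2259 lower. List counts in these settings are to be read beside those of all genes. Genes named below whose call was lost in the covariate fit, under median scaling or without 1 sample are listed at the end of the paragraph that names them. The labels do not say that samples came from separate animals, so p-values measure the spread between these samples.

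The largest increases outside secretion, cell cycle and stroma genes included an enzyme of muscle glycolysis, a protease inhibitor, an amino acid synthetase and a metallothionein. Pgam2, the muscle form of phosphoglycerate mutase, had levels of 9.03, 10.9 and 12.1 (lowest, median and highest tumor) and was detected in no normal sample (4.45, 4.86 and 4.43), which makes it at least 44.7-fold higher (adjusted p = 3.08e-10). Serpina3n, a serine protease inhibitor, ran from 6.78 through a median of 11.0 to 13.0 in the tumors, against 4.62, 4.69 and 4.50 in normal B cells, at least 38.1-fold higher (adjusted p = 8.67e-06). Asns, which makes asparagine from aspartate and glutamine, stood at 9.94, 11.8 and 12.8 in the tumors and at 6.34, 5.92 and 5.96 in normal B cells. Its log2 fold change was 5.64 ± 0.32 (SE; adjusted p = 5.39e-14), and the lowest tumor, tumor 5, was still well above the normal samples.

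Other genes of this group mark membranes and vesicles. Slco4a1, an organic anion transporter, rose by 5.11 ± 0.50 on the log2 scale (SE; adjusted p = 3.34e-09), with tumors at 9.08 to 11.7 and normal B cells at 5.39, 5.07 and 5.49. Cd63, a tetraspanin of late endosomes and exosomes, stood at 7.95, 10.8 and 11.8 in the tumors and at 5.71, 5.75 and 5.90 in normal B cells (adjusted p = 2.43e-09). Tmem176b (34.3-fold), Slamf9, a receptor of the SLAM family (22.7-fold), and Bhlha15, the secretory cell transcription factor Mist1 (21.7-fold), were also higher with every tumor above every normal sample. Smpdl3b, a sphingomyelin phosphodiesterase-like protein, was detected in 14 tumors and no normal sample, at least 20.2-fold higher. Emp1, a tetraspan membrane protein (at least 18.1-fold), Dab2, an endocytic adaptor (at least 16-fold), and Smoc1, a secreted matrix protein (at least 14.0-fold), showed the same pattern. In all, 498 genes called higher were detected in no normal sample, and 104 of them in all 14 tumors. For these genes the fold is a bound, since the normal side was below detection.

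**Figure D2:**
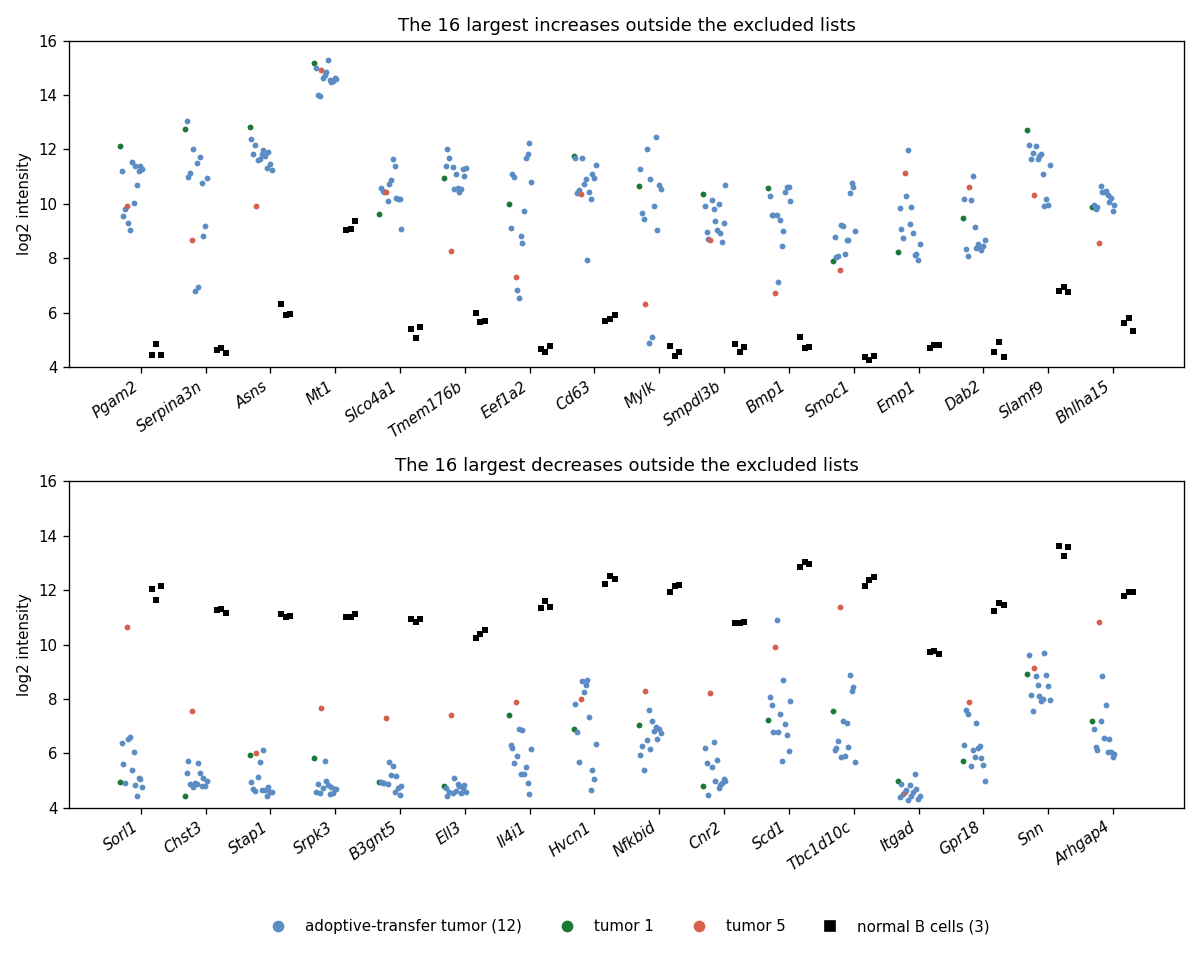
Log2 intensity of the 16 genes with the largest increases (upper panel) and the 16 with the largest decreases (lower panel) outside the excluded B cell, secretion, cell cycle and stroma lists, with tumors as circles left of the 3 normal samples as squares. For all 32 genes the groups did not overlap; tumor 5 was nearest to the normal samples for many of the lower genes, at 10.6 for Sorl1 against 6.59 for the highest of the 12 tumors other than 1 and 5.

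The 16 largest decreases were in genes of many kinds. Sorl1, a sorting receptor of endosomes, had levels of 4.45, 5.24 and 10.6 in the tumors and 12.1, 11.7 and 12.2 in normal B cells, a log2 fold change of -6.14 ± 0.69 (SE; adjusted p = 3.94e-08). Chst3, which sulfates chondroitin, stood at 4.45, 4.94 and 7.56 in the tumors and at 11.3, 11.3 and 11.2 in normal B cells (-6.03 ± 0.36, adjusted p = 1.47e-13). In both genes the highest tumor was tumor 5. B3gnt5, which starts the lacto-series sugar chain on glycolipids, stood at 4.49, 4.93 and 7.31 in the tumors and at 10.9, 10.8 and 10.9 in normal B cells (53.9-fold lower, adjusted p = 3.79e-14). Stap1, an adaptor of B cell receptor signalling (64.0-fold), Srpk3, a kinase of splicing factors (63.1-fold), and Ell3, a transcription elongation factor (44.8-fold), were detected in 5, 3 and 1 of the tumors in that order, and in every normal sample. Their folds are set against tumor values that lay mostly at background. The median tumors of Chst3 and B3gnt5, at 4.94 and 4.93, were also near background, so the same limit holds for their folds.

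Several of the steepest decreases were enzymes or channels that make or move small molecules. Scd1, which desaturates stearate, had levels of 5.71, 7.35 and 10.9 in the tumors and 12.9, 13.0 and 13.0 in normal B cells (-5.30 ± 0.99, adjusted p = 9.19e-05). Il4i1, an L-amino acid oxidase, ran from 4.50 to 7.90 in the tumors and stood at 11.4, 11.6 and 11.4 in normal B cells (42.1-fold lower). Hvcn1, the voltage-gated proton channel, ran from 4.66 to 8.69 in the tumors, against 12.2, 12.5 and 12.4 in normal B cells (41.6-fold lower, adjusted p = 1.37e-05). Nfkbid, a nuclear inhibitor protein of NF-kB, was 41.1-fold lower, Tbc1d10c, a Rab GTPase activating protein, 34.3-fold, and Itgad, an integrin alpha chain, 33.8-fold. Snn, stannin, was detected in all 14 tumors at 7.56 to 9.68 and lay 30.7-fold below its level in normal B cells.

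Ranked by the moderated t, the leading differences were partly other genes. Farp2, a guanine nucleotide exchange factor, had levels of 9.19, 9.82 and 10.3 in the tumors and 6.23, 6.22 and 6.13 in normal B cells (3.66 ± 0.18, adjusted p = 2.21e-15). Gcat, which cleaves a product of threonine breakdown into glycine, stood at 8.28, 9.60 and 10.5 in the tumors and at 5.31, 5.04 and 5.28 in normal B cells (adjusted p = 7.81e-12). Hnrnpll, an RNA-binding protein known for the splicing of CD45 in lymphocytes, was 11.3-fold higher, Pex11a, which drives peroxisome division, 8.81-fold, and Fndc3b, a membrane protein with fibronectin-type domains, 7.12-fold. On the lower side, Klhl14, a Kelch-like adaptor, was detected in no tumor (4.34, 4.39 and 4.67) and stood at 6.99, 6.93 and 6.68 in normal B cells, at least 3.16-fold lower (adjusted p = 2.13e-16). Gpr137c (at least 4.68-fold) and Fam167a (at least 4.09-fold) were likewise detected in no tumor and in all normal samples, and Tmem108 and Gm6377 were detected in 1 and 2 tumors. These genes passed the test with tumor 5 included. Klhl14, Gpr137c and Fam167a lay at background in every tumor, so their small spread there is that of the floor. For Klhl14 the SD was 0.10 across the 14. That spread enters the moderated t and does not show how alike the tumors were in these genes.

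Signalling genes through which a B cell receives cues fell in several families. Of 40 genes of G protein signalling and lipid mediator receptors, 18 were lower (45%, beside 16.7% of all genes) and 3 higher, with a median of -0.48. That median ran from -0.83 under median scaling to -0.21 without background correction, and without tumors 1 and 5, 6 members were higher. The filter asks for detection on 3 arrays, which the normal samples alone can supply. With detection required on 14 or more arrays, 10 members were lower, beside 1652 of all 8689 genes then tested. Cnr2, the cannabinoid receptor of immune cells, stood at 4.48, 5.02 and 8.24 in the tumors and at 10.8, 10.8 and 10.8 in normal B cells (40.7-fold lower, adjusted p = 2.33e-10). Gpr18, a receptor for lipid mediators, stood at 5.00, 6.17 and 7.89 in the tumors and at 11.2, 11.5 and 11.4 in normal B cells (33.6-fold lower, adjusted p = 1e-09). Both receptors were far above background in normal B cells, and Cnr2 was detected in 6 of the tumors. Gpr171 was 17.4-fold lower and Pde7a, a phosphodiesterase that breaks down cyclic AMP, 7.58-fold lower. The 3 higher members were S1pr2, a sphingosine-1-phosphate receptor that restrains migration (5.08-fold, adjusted p = 1.08e-07), Rgs10, a regulator of G protein signalling (2.83-fold), and Gng12, a G protein gamma subunit (3.00-fold). The call of Gng12 was lost with Eif2s3y as a covariate and under median scaling.

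Receptors for nucleotides moved in both directions. Of 13 purinergic genes 4 were higher (30.8%) and 2 lower (15.4%), beside 19.8% and 16.7% of all genes. P2ry10, a receptor for lysophosphatidylserine grouped with the nucleotide receptors by sequence, was at 4.60, 4.77 and 5.90 in the tumors and at 8.81, 8.84 and 8.42 in normal B cells (13.5-fold lower, adjusted p = 5.76e-14). P2ry13, a receptor for ADP, was 3.10-fold lower. P2ry6, a receptor for UDP, was at 7.41, 8.56 and 10.7 in the tumors and at 6.30, 5.42 and 5.78 in normal B cells (8.49-fold higher, adjusted p = 3.25e-05), and P2ry14, a receptor for UDP-glucose, was 5.63-fold higher. Ada, adenosine deaminase, which removes adenosine, stood at 6.88, 9.69 and 10.5 in the tumors and at 5.81, 5.89 and 5.59 in normal B cells (13.3-fold higher, adjusted p = 8.32e-07), and tumor 5 was the lowest tumor. The calls of P2ry13 and P2ry14 were lost with Eif2s3y as a covariate.

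The MAP kinase list was lower in 14 of 26 genes (53.8%, beside 16.7% of all genes) and higher in 1. Its median was -1.18, and -0.55 without background correction. With detection required on 14 or more arrays, 11 members were lower. Dusp4, a phosphatase that switches MAP kinases off, had levels of 4.50, 4.89 and 5.86 in the tumors and 7.79, 7.88 and 7.83 in normal B cells (7.48-fold lower, adjusted p = 1.87e-12). Dusp6, a phosphatase of ERK, was 5.04-fold lower with every tumor (7.37 to 10.2) below every normal sample (10.8, 10.8 and 10.8; adjusted p = 7.26e-05). Rasgrp2, an exchange factor for Rap1 that acts in integrin activation, was detected in no tumor and was at least 3.33-fold lower. The exception, Mapkapk3, a kinase downstream of p38, was 1.94-fold higher with overlapping groups (adjusted p = 0.0222), and lost its call with Eif2s3y as a covariate, under median scaling, without background correction, with a block by replicate number and without normal sample 1 or 2. Among GIMAP and septin GTPases, 7 of 13 were lower (53.8%), and without tumors 1 and 5, 2 members were higher. GIMAP proteins are small GTPases that serve lymphocyte survival. Gimap8 stood at 5.90, 6.57 and 9.03 in the tumors and at 11.3, 11.2 and 11.3 in normal B cells (22.9-fold lower, adjusted p = 7.44e-10), and Gimap7 (21.4-fold) and Gimap6 (18.7-fold) were lower in every tumor. The T cell markers averaged 6.10 to 9.04 in the tumors, with a median of 6.56, and 7.37 to 7.89 in normal B cells, with Cd4, Cd8a and Cd5 detected in neither group. The NK cell markers had a median of 6.65 in the tumors, against 7.43 to 7.58 in normal B cells. The part of T and NK cells in the GIMAP values was not tested.

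Calcium and ion channel genes were lower in 15 of 36 (41.7%, beside 16.7% of all genes) and higher in 5 (13.9%, beside 19.8%). Their median was -0.71, and -0.28 without background correction. Besides Hvcn1, Nfatc1, a transcription factor that calcium activates, had levels of 6.45, 7.09 and 8.05 in the tumors and 9.89, 9.55 and 9.73 in normal B cells (6.03-fold lower, adjusted p = 2.38e-09). Itpr2, a calcium release channel of the ER, was 4.79-fold lower (adjusted p = 3.3e-05). The higher members included Kcnk6, a potassium channel (4.11-fold), Rcan1 and Rcan3, inhibitors of calcineurin (2.14-fold and 1.96-fold), S100a6, a calcium-binding protein (3.14-fold), and Atp2a2, the calcium pump of the ER (2.80-fold, adjusted p = 0.0216). With Eif2s3y as a covariate 5 members were lower and 1 higher, and the calls of Kcnk6, Rcan1, S100a6 and Atp2a2 were lost. Median scaling ended the calls of Rcan1, Rcan3 and Atp2a2, and leaving out any 1 normal sample ended that of Atp2a2, as normal sample 1 did for S100a6.

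Toll-like and NOD-like receptor genes were lower in 11 of 28 (39.3%, beside 16.7% of all genes) and higher in 1 (3.57%, beside 19.8%). Tlr1, which pairs with Tlr2 on bacterial lipoproteins, had levels of 4.56, 5.23 and 8.67 in the tumors and 8.88, 9.10 and 8.90 in normal B cells (10.5-fold lower, adjusted p = 5.02e-06). Irak2, a kinase of the pathway, was 9.47-fold lower and Cd180, a Toll-like receptor relative of B cells, 9.30-fold lower. Tirap, an adaptor, was 1.97-fold higher (adjusted p = 0.000806) and lost its call under median scaling. The list's median lay above the normal mean in tumors 5 and 7, by 0.275 and 0.146, and below it in the other tumors. With Eif2s3y as a covariate 6 members were lower.

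Growth factor and cytokine genes were called in both directions, 9 higher and 9 lower of 34 (26.5% each, beside 19.8% and 16.7% of all genes). Vegfa, which drives vessel growth, had levels of 7.19, 8.28 and 9.98 in the tumors and was detected in no normal sample (4.86, 4.38 and 4.56), at least 9.74-fold higher (adjusted p = 2.66e-09). Il10, an immunosuppressive cytokine, stood at 6.71, 8.10 and 9.72 in the tumors and at 6.00, 5.72 and 5.87 in normal B cells (4.94-fold higher, adjusted p = 0.00367). Osm, a cytokine of the IL-6 family, was 4.31-fold higher (adjusted p = 0.00539). Lta, lymphotoxin alpha, which organises lymphoid tissue, was at 4.40, 4.79 and 5.41 in the tumors and at 7.77, 7.86 and 7.88 in normal B cells (7.98-fold lower, adjusted p = 1.18e-11), and Il27ra, a receptor chain for IL-27, was 10.8-fold lower. Il10ra, the receptor chain for IL-10, was 7.94-fold lower (adjusted p = 0.000501) while its ligand was higher, and its highest tumor at 9.64 overlapped the normal samples at 8.91, 9.16 and 9.12. With Eif2s3y as a covariate 3 members were higher and 2 lower, and the calls of Osm and Il10ra were lost.

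Genes of the TGF-beta family were called in both directions. Of 28 tested, 9 were higher (32.1%, beside 19.8% of all genes) and 7 lower (25%, beside 16.7%). Bmp1, a protease that processes collagen and BMP antagonists, stood at 6.74, 9.59 and 10.6 in the tumors and at 5.11, 4.70 and 4.74 in normal B cells (24.0-fold higher, adjusted p = 2.15e-07), and Bmpr2, a BMP receptor, was 6.45-fold higher. Among the lower ones were the ligand Tgfb1 (4.27-fold), its receptor Tgfbr2 (5.12-fold, adjusted p = 6.52e-06), the activin receptor Acvr1b (2.64-fold) and the signal carrier Smad2 (2.63-fold), each with every tumor below every normal sample. Id2, an inhibitor of helix-loop-helix factors and a known target of the pathway, was 4.35-fold lower. Of 24 Wnt genes 6 were lower (25%) and 3 higher (12.5%), and of 19 Notch genes 5 were lower (26.3%) and 3 higher (15.8%). Bcl9, a coactivator of beta-catenin, stood at 4.51, 4.98 and 5.22 in the tumors and at 7.02, 6.99 and 6.87 in normal B cells (4.08-fold lower, adjusted p = 1.62e-10). Hes1, a Notch target, was 4.70-fold lower, and Maml2, a Notch coactivator, 4.40-fold lower. With the Eif2s3y covariate, 3 TGF-beta genes were higher and 3 Wnt genes lower, and each higher call of the Notch list was lost. Under median scaling 9 Notch genes were lower and 2 higher, and without tumor 5, 5 Wnt genes were higher.

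Guidance molecules of the semaphorin, ephrin and plexin families were higher in 7 of 21 genes (33.3%) and lower in 5 (23.8%). Of all genes, 19.8% were higher and 16.7% lower. Sema3f, a secreted guidance cue, stood at 7.37, 8.49 and 10.3 in the tumors and was detected in no normal sample (4.88, 4.68 and 4.65), at least 10.7-fold higher (adjusted p = 1.52e-09). Sema4b, a membrane semaphorin, had levels of 8.57, 9.39 and 9.83 in the tumors and 11.1, 11.1 and 11.2 in normal B cells (3.47-fold lower, adjusted p = 4.15e-09). Slit3, a secreted guidance protein (at least 3.38-fold), and Ephb4, a receptor of vessels (3.77-fold), were higher with overlapping groups, beside endothelial markers that averaged 5.18 to 8.92 in the tumors and 4.83 to 5.06 in normal B cells. The part of vessels in these results was not tested. Once Eif2s3y was a covariate, 2 members were higher and 1 lower, and the calls of Slit3 and Ephb4 were lost.

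**Figure D3:**
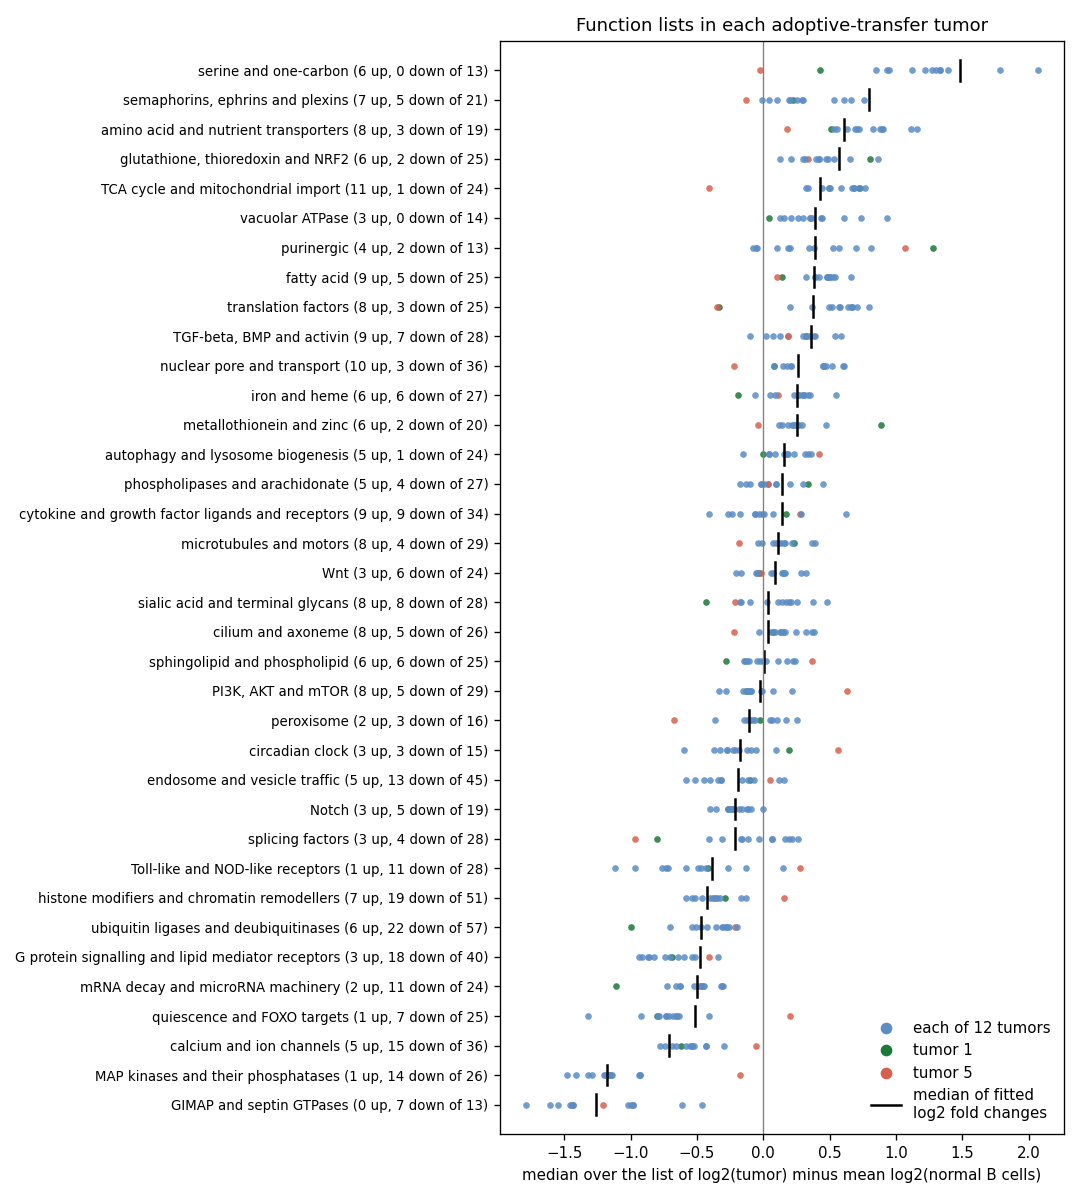
Median over each function list of the log2 level in a tumor minus the mean of normal B cells, for each of the 14 adoptive-transfer tumors (circles), with the median of the fitted log2 fold changes as a black bar and the number of members called higher (up) and lower (down) at the left. MAP kinase genes lie below 0 in every tumor, serine and one-carbon genes above 0 in 13 of 14, and tumor 5 is nearest to 0, or beyond it, in many of the lists at either end.

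The clearest rise among metabolic lists was in the synthesis of serine, glycine and one-carbon units, which feed nucleotide synthesis. Of 13 genes tested 6 were higher (46.2%, beside 19.8% of all genes) and the median log2 fold change was 1.48. The median was 0.60 without background correction, 0.68 on the authors' deposited log2 values and 0.56 with probes of a gene averaged. Psat1, an aminotransferase of serine synthesis, had levels of 8.32, 10.9 and 11.3 in the tumors and 7.39, 7.43 and 7.12 in normal B cells (10.6-fold higher, adjusted p = 4.22e-09). Mthfd2, the mitochondrial folate enzyme, stood at 8.88, 10.6 and 11.6 in the tumors and at 7.68, 7.58 and 7.69 in normal B cells (7.38-fold higher, adjusted p = 1.31e-05). Shmt2, which turns serine into glycine in mitochondria, was 4.62-fold higher (adjusted p = 6.55e-07). The lowest tumor for all 3 genes was tumor 5, whose list median was -0.0288, while the other 13 tumors lay above the normal mean. Without tumors 1 and 5 the list had 9 higher members, and with Eif2s3y as a covariate it had 3.

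Several carriers of amino acids and folate were higher, while the glucose carriers named here were lower. Of 19 nutrient transporters 8 were higher (42.1%, beside 19.8% of all genes) and 3 lower (15.8%, beside 16.7%). Slc6a9, a glycine carrier, stood at 6.07, 7.36 and 10.1 in the tumors and was detected in no normal sample (4.68, 4.53 and 4.47), at least 5.67-fold higher (adjusted p = 0.000121). Slc1a4, a carrier of serine and alanine (at least 3.82-fold), and Slc19a1, the reduced folate carrier (4.16-fold, adjusted p = 1.97e-05), were higher. Slc38a2, a glutamine carrier, had levels of 9.65, 10.5 and 11.5 in the tumors and 12.1, 12.1 and 12.1 in normal B cells (3.13-fold lower, adjusted p = 4.73e-07). The glucose carriers Slc2a3 (5.67-fold) and Slc2a1 (2.55-fold) were lower, and for both only tumor 5, at 11.1 and 10.4, lay above the normal samples. The calls of Slc1a4 and Slc2a1 were lost with Eif2s3y as a covariate.

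**Figure D4:**
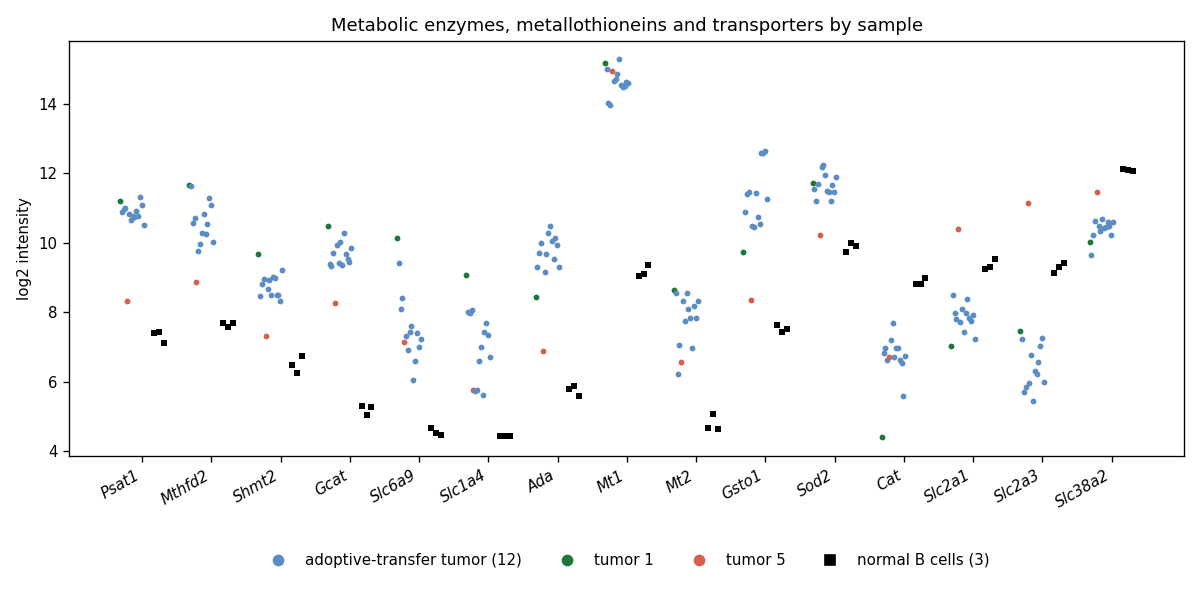
Log2 intensity of 15 metabolic genes, with each tumor as a circle left of the 3 normal samples as squares. Mt1 lies near the top of the scale in every tumor (13.96 to 15.27), while tumor 5 is low for Psat1 and Ada and high for the glucose carriers.

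Metallothioneins, small proteins that bind zinc and copper, gave one of the steadiest increases of all. Mt1 had levels of 13.96, 14.63 and 15.27 in the tumors and 9.055, 9.091 and 9.371 in normal B cells, a log2 fold change of 5.49 ± 0.28 (SE; adjusted p = 4.67e-15). Tumors 1 and 5 did not differ from the rest in Mt1, and the call held in all 30 alternative settings, with log2 fold changes of 5.09 to 5.59. Mt2, its neighbour gene, stood at 6.23, 7.98 and 8.63 in the tumors and was detected in no normal sample (4.68, 5.08 and 4.65), at least 6.30-fold higher (adjusted p = 1.27e-05). Of 20 genes of the metallothionein and zinc list 6 were higher (30%, beside 19.8% of all genes) and 2 lower, among them Slc30a7, a zinc carrier into the Golgi (3.24-fold higher). Mtf1, the zinc-sensing transcription factor of the metallothionein genes, was 1.68-fold lower with overlapping groups (adjusted p = 0.015). The calls of Slc30a7 and Mtf1 were lost with Eif2s3y as a covariate, and that of Mtf1 also with a block by replicate number and without normal sample 2 or 3. Under median scaling 4 members of the list were higher and 4 lower, and 3 were higher with the covariate.

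The sequences around the annotated start of both genes are shown because Mt1 and Mt2 lie side by side and were higher together. Metal response elements, the sites that MTF1 reads, share the core TGCGCNC or TGCACNC, which were searched on both strands after the values were seen, and capitals mark each match. The stretches run from 230 bases before to 30 bases from the annotated start on, on the plus strand of GRCm38.p6 (RefSeq), at chr8:94178859-94179118 for Mt1 and chr8:94172388-94172647 for Mt2.
Mt1: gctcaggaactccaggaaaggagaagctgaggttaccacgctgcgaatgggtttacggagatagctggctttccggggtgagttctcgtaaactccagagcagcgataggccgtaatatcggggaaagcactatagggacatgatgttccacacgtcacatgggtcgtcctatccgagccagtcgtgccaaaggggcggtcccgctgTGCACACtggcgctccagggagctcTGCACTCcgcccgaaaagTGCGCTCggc
Mt2: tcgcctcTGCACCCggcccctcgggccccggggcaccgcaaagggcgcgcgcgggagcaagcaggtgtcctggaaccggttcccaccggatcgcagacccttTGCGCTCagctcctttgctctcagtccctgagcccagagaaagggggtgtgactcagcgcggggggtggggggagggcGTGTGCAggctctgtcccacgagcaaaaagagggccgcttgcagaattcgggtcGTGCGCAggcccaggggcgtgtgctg
Mt1 held 3 matches in this window, beginning at -23, 3 and 21 from the start. Mt2 held 4, at -223, -128, -50 and 5, so some of the matches lie past the start. TGCGCNC was in 28.1% and TGCACNC in 15.3% of the promoters of all genes tested. Those shares count a gene with any match from 250 bases before to 50 after a start, a longer window than the one printed. A match is thus common, and it describes letters and not a site in use. Among genes called higher the shares were 30.1% and 16.3%.

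Promoters of wider gene groups were also read. A RefSeq promoter was found for 9499 of the genes tested, spanning 250 bases before to 50 after the start. The antioxidant response element core TGACNNNGC was in 16.5% of promoters of genes called higher, 17.6% of those called lower and 16.4% of all. The E-box CACGTG was in 12.6%, 11.5% and 11.3% in the same order, the full CRE TGACGTCA in 4.26%, 3.36% and 3.36%, the forkhead motif GTAAACA in 2.63%, 2.66% and 3.18%, and the D-box TTANGTAA in 1.95%, 2.09% and 1.92%. The shares of the 3 sets were thus close for each motif, with both strands counted and no test made.

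Enzymes that handle oxidants showed a mixed picture. Of 25 genes of glutathione, thioredoxin and NRF2, 6 were higher (24%, close to the 19.8% of all genes) and 2 lower. Gsto1, a glutathione transferase, stood at 8.35, 11.1 and 12.6 in the tumors and at 7.64, 7.45 and 7.52 in normal B cells (11.3-fold higher, adjusted p = 4.92e-06). Sod2, the mitochondrial superoxide dismutase, was 3.22-fold higher and Txn1, thioredoxin, 3.09-fold. Cat, catalase, which removes hydrogen peroxide, had levels of 4.41, 6.73 and 7.71 in the tumors and 8.83, 8.81 and 8.98 in normal B cells (4.77-fold lower, adjusted p = 7.48e-05). Sod1, the cytosolic superoxide dismutase, was 2.16-fold lower with overlapping groups (adjusted p = 0.0308). The antioxidant response element core was in 8 of the 25 promoters read for the list (32%, beside 16.4% of all genes tested), and also in 35.3% of those of the metallothionein and zinc list and 33.3% of those of the clock list. The call of Txn1 was lost with Eif2s3y as a covariate, and that of Sod1 also with a replicate block, with no filter on dim probes and without any 1 normal sample. Without tumors 1 and 5 the list had 11 higher members, and with Eif2s3y as a covariate 3.

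Iron and heme genes were called in both directions. The higher ones included Alad and Urod, enzymes of heme synthesis (2.39-fold, adjusted p = 2.45e-05, and 1.83-fold), and Iscu, the scaffold of iron-sulfur clusters (2.49-fold, adjusted p = 1.98e-05). Slc40a1, ferroportin, the iron exporter, had levels of 7.01, 8.87 and 11.6 in the tumors and 12.6, 12.2 and 12.7 in normal B cells (11.4-fold lower, adjusted p = 6.4e-06). Hmox1, heme oxygenase, which breaks heme down, was 8.94-fold lower (adjusted p = 0.0056), but tumor 7 at 12.3 and tumor 5 at 10.5 overlapped the normal samples at 10.9, 9.99 and 10.4. Tumor 7 also had the highest mean of macrophage markers, 11.4, against 8.49 to 8.79 in normal B cells, and the highest Slc40a1, and the part of those cells was not tested. In all, 6 of 27 genes were higher and 6 lower (22.2% each, beside 19.8% and 16.7% of all genes). The call of Urod was lost under median scaling and that of Hmox1 with Eif2s3y as a covariate. Without tumors 1 and 5 the list had 11 higher members, under median scaling 2, and with Eif2s3y as a covariate 1 was lower.

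Of 25 fatty acid genes 9 were higher (36%, beside 19.8% of all genes) and 5 lower (20%, beside 16.7%). Scd1, described above, was the steepest decrease, while Fads1, the delta-5 desaturase of polyunsaturated fatty acids, had levels of 9.41, 10.3 and 10.7 in the tumors and 7.94, 7.79 and 7.91 in normal B cells (4.79-fold higher, adjusted p = 2.51e-08). Elovl6, which lengthens palmitate, was 4.36-fold higher, and Plin2, a coat protein of lipid droplets, 4.40-fold higher (adjusted p = 0.00907), with the highest Plin2, 10.2, in tumor 7. Hadha, an enzyme of beta-oxidation, was 2.10-fold lower. Among sphingolipid and phospholipid genes 6 of 25 were higher and 6 lower (24% each, beside 19.8% and 16.7% of all genes). Sgms1, sphingomyelin synthase, was 8.50-fold lower, with tumor 5 at 10.6 above the normal samples at 9.47, 9.67 and 9.38. Ephx1, the microsomal epoxide hydrolase, stood at 5.54, 6.49 and 7.84 in the tumors and at 10.2, 10.3 and 10.5 in normal B cells (12.1-fold lower, adjusted p = 9.01e-07), and Hpgd, which inactivates prostaglandins, was 4.16-fold lower and detected in 1 tumor, so that its fold is set against background in the others. The calls of Plin2 and Sgms1 were lost with Eif2s3y as a covariate, and that of Plin2 also without normal sample 2. In that covariate fit 2 fatty acid genes were higher and 2 lower, as were 1 and 2 of the sphingolipid list. Of 27 phospholipase and arachidonate genes 5 were higher (18.5%) and 4 lower (14.8%), so neither direction exceeded its share of all genes. Under median scaling 3 of them were higher and 6 lower, and with Eif2s3y as a covariate the higher calls were lost.

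Mitochondrial enzymes and import proteins were higher in 11 of 24 genes (45.8%, beside 19.8% of all genes) and lower in 1 (4.17%, beside 16.7%). Idh2, the mitochondrial isocitrate dehydrogenase, stood at 7.41, 9.87 and 10.2 in the tumors and at 6.96, 6.97 and 7.15 in normal B cells (6.49-fold higher, adjusted p = 3.17e-07). Timm8a1, an import chaperone, was 3.27-fold higher (adjusted p = 0.000451). Fh1, fumarate hydratase, was the exception, 2.07-fold lower with every tumor below every normal sample (adjusted p = 0.00357), and lost its call with Eif2s3y as a covariate. Tumor 5 was the 1 tumor whose list median, -0.413, lay below the normal mean. Under median scaling 5 members were higher, and with Eif2s3y as a covariate 4.

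The lysosomal and autophagy lists gave few calls. Wipi1, which acts in autophagosome formation, had levels of 6.79, 8.44 and 8.95 in the tumors and 5.10, 5.42 and 5.20 in normal B cells (7.81-fold higher, adjusted p = 5.14e-08). Gabarapl1, an ATG8 family protein, was 5.21-fold higher (adjusted p = 2.08e-06) and Lamp2, a lysosomal membrane protein, 2.67-fold higher. Those were 3 of the 5 higher members among 24 tested (20.8%, beside 19.8% of all genes), with 1 lower. Vacuolar ATPase subunits were higher in 3 of 14 (21.4%). Without tumors 1 and 5, 7 autophagy genes and 8 vacuolar ATPase subunits were higher. Under median scaling 3 autophagy genes were higher and 5 lower, and 1 vacuolar ATPase subunit was higher, and with Eif2s3y as a covariate 3 and 1 were higher.

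Endosome and vesicle genes leaned the other way, with 13 of 45 lower (28.9%, beside 16.7% of all genes) and 5 higher (11.1%, beside 19.8%). Snx2, a sorting nexin of the retromer, stood at 10.2, 10.8 and 12.8 in the tumors and at 13.7, 13.5 and 13.6 in normal B cells (5.87-fold lower, adjusted p = 3.3e-07). Vps37b, an ESCRT protein, was 14.8-fold lower, with tumor 5 at 10.2 within the normal range, and Unc13d, which primes granules for release, 5.87-fold lower. Rab3d, a GTPase of secretory granules, had levels of 7.99, 9.29 and 10.9 in the tumors and 7.62, 7.28 and 7.42 in normal B cells (3.52-fold higher, adjusted p = 0.000194). Chmp4b, an ESCRT-III protein, was 2.60-fold higher (adjusted p = 2.38e-05). Under the Eif2s3y covariate, 8 members were lower and 2 higher, and without tumors 1 and 5, 8 were higher.

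A few genes known to hold lymphocytes at rest were lower by large amounts. Btg1, which slows division and recruits mRNA deadenylases, had levels of 7.91, 9.15 and 13.7 in the tumors and 14.4, 14.3 and 14.4 in normal B cells (28.6-fold lower, adjusted p = 2.97e-06). Zfp36l1, which targets AU-rich mRNAs for decay, stood at 10.1, 11.1 and 13.7 in the tumors and at 14.6, 14.8 and 14.8 in normal B cells (11.4-fold lower, adjusted p = 1.77e-08). In both genes the highest tumor was tumor 5. They belong to a list of mRNA decay and microRNA machinery in which 11 of 24 were lower (45.8%, beside 16.7% of all genes). The 2 higher members (8.33%, beside 19.8%) were Tob1, an antiproliferative relative of Btg1 (3.15-fold), and Drosha, the nuclear microRNA processing enzyme (1.85-fold). The call of Tob1 was lost with Eif2s3y as a covariate and that of Drosha under median scaling. In the covariate fit 7 members were lower.

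Among quiescence and FOXO target genes 7 of 25 were lower (28%, beside 16.7% of all genes) and 1 higher (4%, beside 19.8%). Without tumor 5, 13 were lower. Foxo1, a transcription factor of resting lymphocytes, had levels of 5.13, 6.04 and 6.47 in the tumors and 8.96, 9.01 and 8.82 in normal B cells (7.54-fold lower, adjusted p = 4.09e-11). Foxp1 was 6.11-fold lower and Tsc22d3, the glucocorticoid-induced leucine zipper, 8.86-fold lower, with tumor 5 at 13.2 within the normal range for Tsc22d3. Mxi1, an antagonist of Myc, was the 1 higher member, detected in 14 tumors and no normal sample, at least 2.20-fold higher (adjusted p = 0.000451). The forkhead motif was in 4 of 23 promoters read for this list, beside 3.18% of all genes tested and 2.66% of genes called lower. The list was chosen in part as FOXO targets, so its share can follow from that choice. Under median scaling 12 members were lower. In the PI3K, AKT and mTOR list 8 of 29 were higher (27.6%) and 5 lower (17.2%), beside 19.8% and 16.7% of all genes. Eif4ebp1, which restrains cap-dependent translation, stood at 10.1, 10.6 and 12.4 in the tumors and at 8.31, 7.99 and 8.06 in normal B cells (6.37-fold higher, adjusted p = 9.99e-08). Under median scaling 5 members of that list were higher and 10 lower, while 1397 of all genes were higher and 2794 lower. With Eif2s3y as a covariate, 3 were higher and the lower calls were lost, and without tumor 5, 8 were lower.

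Clock genes gave 3 higher and 3 lower of 15 (20% each, beside 19.8% and 16.7% of all genes). Csnk1e, casein kinase 1 epsilon, which acts on PER proteins, was at 8.51, 9.14 and 10.5 in the tumors and at 6.86, 7.07 and 7.12 in normal B cells (4.95-fold higher, adjusted p = 7.15e-07). Bhlhe40, a repressor in the clock loop, was 5.63-fold lower (adjusted p = 0.000242) and Arntl, the core activator BMAL1, 2.38-fold lower (adjusted p = 0.000167). The time of day of sampling is not given in the labels. Cilium genes were called in both directions, 8 higher (30.8%) and 5 lower (19.2%) of 26. Ift20, an intraflagellar transport protein that also acts at the Golgi, was 3.62-fold higher (adjusted p = 0.000104), while Ift81 of the same transport complex was 2.90-fold lower (adjusted p = 2.17e-06). The call of Ift81 was lost when probes of a gene were averaged, so its probes disagree. In the fit with Eif2s3y, 3 cilium genes were higher and 3 lower, and under median scaling 6 and 7. The clock list had 1 higher and 6 lower under median scaling, where 1397 of all genes were higher and 2794 lower. It had 1 higher and 4 lower with Eif2s3y, and 3 higher and 5 lower without tumor 5.

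Chromatin genes were lower in 19 of 51 (37.3%, beside 16.7% of all genes) and higher in 7 (13.7%, beside 19.8%). Satb1, a chromatin organiser of lymphocytes, was 22.5-fold lower (adjusted p = 0.000627), yet tumor 5 at 13.6 lay above the normal samples at 12.1, 11.9 and 12.0 and the median tumor stood at 6.98. T cell markers were also highest in tumor 5, at 9.04, and their part in the value was not tested. Setd2, the methyltransferase of histone H3 lysine 36, had levels of 6.84, 7.56 and 9.67 in the tumors and 10.0, 10.3 and 10.2 in normal B cells (5.98-fold lower, adjusted p = 7.69e-07), and Arid5b was 5.20-fold lower. The higher members included 3 arginine methyltransferases, Prmt7 (3.43-fold, adjusted p = 1.61e-07), Prmt1 (2.04-fold, adjusted p = 0.000887) and Prmt5 (1.61-fold, adjusted p = 0.0203). Under median scaling 1 member was higher, and the calls of Prmt1 and Prmt5 were lost, as they were with Eif2s3y as a covariate. That covariate also ended the call of Satb1 and left 6 lower members, and leaving out normal sample 1 or 2 ended that of Prmt5.

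Ubiquitin ligases and deubiquitinases were lower in 22 of 57 (38.6%, beside 16.7% of all genes) and higher in 6 (10.5%, beside 19.8%). Besides Klhl14, Rnf144a stood at 4.49, 4.87 and 7.10 in the tumors and at 8.22, 8.68 and 8.32 in normal B cells (10.1-fold lower, adjusted p = 5.85e-08). Klhl6, a ligase adaptor of germinal centre B cells, was 11.5-fold lower, but tumor 5 at 14.7 lay above the normal samples at 12.0, 11.9 and 12.2, and the call (adjusted p = 0.00482) was lost with Eif2s3y as a covariate. Uchl5, a deubiquitinase of the proteasome, was 2.39-fold higher (adjusted p = 7.42e-05) and lost its call under median scaling. With the Eif2s3y covariate, 8 members were lower and 1 higher, under median scaling 2 were higher, and without tumor 5, 10 were higher.

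Of 25 translation factors 8 were higher (32%, beside 19.8% of all genes) and 3 lower, and without tumors 1 and 5, 14 were higher. Eif2b3, a subunit of the exchange factor for eIF2, stood at 7.73, 9.53 and 10.7 in the tumors and at 7.43, 7.42 and 7.38 in normal B cells (4.12-fold higher, adjusted p = 2.53e-06). Eif2s2 was 2.55-fold and Eif1a 2.40-fold higher, each with every tumor above every normal sample. Pdcd4, an inhibitor of the helicase eIF4A, was 3.33-fold lower with tumor 5 at the top of the tumors' range. Eef1a2, the elongation factor form of muscle and neurons, was detected in all 14 tumors (6.55, 9.86 and 12.2) and no normal sample, at least 23.5-fold higher (adjusted p = 0.00013). Of 36 nuclear pore and transport genes 10 were higher (27.8%) and 3 lower, among them Ipo4 (3.63-fold) and Xpot, the exporter of transfer RNA (3.39-fold, adjusted p = 2.07e-07), both higher. Under median scaling 5 translation factors were higher and 4 lower, 3 nuclear transport genes were higher and 4 lower, and the transport list's median was -0.09 in place of 0.26. Once Eif2s3y was a covariate, 3 translation factors and 4 nuclear transport genes were higher.

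Sugar-chain genes were called evenly, 8 higher and 8 lower of 28 (28.6% each, beside 19.8% and 16.7% of all genes). Gne, the entry enzyme of sialic acid synthesis, had levels of 7.06, 8.57 and 9.42 in the tumors and 5.86, 5.98 and 6.13 in normal B cells (5.30-fold higher, adjusted p = 4.63e-06), and Nans, the next synthase of that pathway, was 2.45-fold higher. Slc35a2, the Golgi carrier of UDP-galactose, was 2.44-fold higher. St3gal6, a sialyltransferase, was 10.4-fold lower and B3gnt8 8.63-fold lower, beside B3gnt5 above. Microtubule genes were higher in 8 of 29 (27.6%) and lower in 4 (13.8%). The tubulins Tubb6 (8.36-fold, adjusted p = 5.54e-08) and Tubb2b (6.07-fold, adjusted p = 1.8e-05) led the higher ones. Peroxisome and splicing factor lists gave few calls. The peroxisome list had 2 higher (12.5%) and 3 lower (18.8%) of 16, and the splicing list 3 (10.7%) and 4 (14.3%) of 28. The calls of Nans and Slc35a2 were lost under median scaling, where 2 sugar-chain genes were higher, and with Eif2s3y as a covariate 3 sugar-chain and 3 microtubule genes were. Under median scaling 5 microtubule genes were higher and 6 lower, with a list median of -0.21 in place of 0.11. The median of all genes moved the same way, from 0.105 to -0.0758. The higher calls of the splicing list were lost under median scaling, with 6 lower, and with the covariate, with 1 lower, and without tumor 5, 6 were higher. Under median scaling 1 peroxisome gene was higher and 5 lower.

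Some genes called higher varied widely from tumor to tumor, smooth muscle genes among them. Actg2, a smooth muscle actin, ran from 4.29 in tumor 5 to 12.6 in tumor 1, Mylk, myosin light chain kinase, from 4.87 in tumor 7 to 12.5 in tumor 11, and Myh11, smooth muscle myosin, from 4.37 in tumor 7 to 9.84 in tumor 1. Fibroblast markers were lowest in tumors 5, 7 and 9, at 6.10, 5.80 and 6.07, and the same tumors had the lowest Mylk, 6.33, 4.87 and 5.12, beside normal B cells at 4.76, 4.40 and 4.55. The part of stromal cells in these values was not tested. Serpina3n, described above, was also lowest in tumors 7 and 9, at 6.78 and 6.96.

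Other variable genes had other tumors at their extremes. Ct55, a cancer-testis gene, ran from 4.56 in tumor 4 to 11.3 in tumor 9, was detected in 12 tumors and in none of the normal samples. Its mean was at least 4.67-fold higher (adjusted p = 0.0133). C2cd4a was highest in tumor 9 as well, at 11.5, and lowest in tumor 14, at 5.13. Snurf, an imprinted gene, was lowest in tumor 7, at 4.65, and highest in tumors 11, 12 and 13, at 10.7, 10.4 and 10.8. Eef1a2 was highest in tumors 11, 12 and 13 too, at 11.7, 11.8 and 12.2. Hp, haptoglobin, was lowest in tumors 12 and 13, at 5.99 and 6.42, and up to 12.1 elsewhere. The calls of Ct55, C2cd4a, Snurf, Hp, Actg2 and Myh11 were lost with Eif2s3y as a covariate, and those of Ct55, Snurf, Actg2 and Myh11 also without at least 1 normal sample.

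Age did not order the tumors in a way the test could see. The labels give ages of 105, 107, 111, 125, 127 and 158 days. A slope per day within the 14 tumors was called for 0 genes (0%; limma, smallest adjusted p = 0.0839), with 1094 genes at an unadjusted p under 0.05. Without tumor 14, the only sample at 158 days, 41 genes passed.

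The adoptive-transfer tumors were finally set against the 11 spontaneous tumors, which come from lymph nodes, so kind and tissue cannot be told apart. Ages also ranged differently, from 105 to 158 days in the adoptive-transfer tumors and from 40 to 162 days in the spontaneous ones. The difference was called for 322 genes (2.73%), 162 higher and 160 lower in adoptive-transfer tumors. Without tumor 5, 565 genes were called, and with Eif2s3y as a covariate 1. Among the genes named by rule for the comparison with normal B cells, 12 of 281 also differed between the tumor kinds. Sema6d, a membrane semaphorin, averaged 5.29 in the adoptive-transfer group, 6.50 in the spontaneous group and 6.32 in normal B cells, and Drosha averaged 8.44, 7.73 and 7.55 in those groups (adjusted p = 0.00336 and 0.00188). Against normal B cells, the call of Sema6d was lost with Eif2s3y as a covariate and without any 1 normal sample, and that of Drosha under median scaling.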

How the data were processed

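RNA of 28 samples was measured on Illumina bead arrays. Per the labels' protocols, RNA was extracted with Trizol from ground frozen samples and copied into biotin-labelled cRNA with an Ambion kit. The authors deposited a raw intensity per probe with a detection score, per the file headers, and a processed log2 value whose columns share a median of 7.15. Partek is named in the submitters' processing notes, with no role given. The deposited intensity was corrected with limma's neqc (version 3.58.1, R 4.3.3; normexp offset 16, quantile normalisation) and taken to log2. A gene was its probe with the highest mean, tested if detected (detection p under 0.05) on 3 or more arrays. Genes detected in 1 group alone could thus enter the test and the lists. A mean per group was fitted over all 28 arrays with limma and adjusted by Benjamini-Hochberg, called under 0.05. Samples were grouped by title. The text names genes by rule: those with the largest changes and largest moderated t outside the usual lists and the immunoglobulin, H2 and collagen genes, the leading members of each function list in either direction, and the most variable genes called higher. Members and lists were chosen with earlier results of these data known. Alternatives covered background, scaling, the deposited log2 values, filters, probes, array weights, Eif2s3y as a covariate, a replicate block and leaving out samples. The fit was tested on simulated data. The number of arrays limits the precision. The result of 1 function list is not reported here.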

Additional observations from a re-analysis of the deposited data

Results flagged for a closer look

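Of the genes named by rule, 12 differed between the adoptive-transfer tumors and the spontaneous tumors by the limma fit (Benjamini-Hochberg adjusted p under 0.05), and each is given as the log2 difference of the means. Mt1 was 0.73 higher in adoptive-transfer tumors (14.67) than in spontaneous tumors (13.93), with normal B cells at 9.17. Drosha (0.71), Nfkbid (0.90), Ift172 (0.94) and Bbs4 (0.49) were also higher in adoptive-transfer tumors. Itgad differed by -1.42, Sema6d by -1.21, Fut8, which adds core fucose to glycans, by -1.15, Sema7a by -1.04, Ptges, a prostaglandin E synthase, by -0.99, Sema3f by -0.87 and Fndc3b by -0.48, all lower in adoptive-transfer tumors. The adjusted p-values ran from 0.00188 (Drosha) to 0.0495 (Bbs4). Tumor kind and tissue, oil granuloma or lymph node, cannot be told apart, and with Eif2s3y as a covariate 1 gene of all tested differed. Against normal B cells, the calls of Bbs4, Fut8, Ift172, Ptges, Sema6d and Sema7a were lost with Eif2s3y as a covariate, and those of Drosha and Fut8 under median scaling. Those of Bbs4, Fut8, Ift172, Ptges and Sema6d were also lost without any 1 normal sample, and that of Ift172 without any 1 of 9 tumors.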

How the results depend on the processing

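No named gene reversed its direction under any alternative run. Under median scaling 1397 genes were higher, 140 differed between tumor kinds and 2 had an age slope. With array weights 7215 genes were called, 4105 higher and 3110 lower, and 894 differed between tumor kinds. With Eif2s3y as a covariate the counts were 1949, 1009 and 940, with 1 between tumor kinds. Without tumors 1 and 5, 3998 called genes did not overlap between groups and 707 differed between tumor kinds. With age as a rank 4 genes had a slope. The cause of these moves was not tested.

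Leaving out 1 normal sample left 3215 to 3360 called genes (1645 to 1761 higher, 1566 to 1599 lower), 2160 to 2254 of them with no overlap, and 252 to 262 between tumor kinds. Leaving out 1 tumor left 4168 to 5009 (2245 to 2750 higher, 1914 to 2259 lower), 2218 to 3337 with no overlap, 260 to 565 between tumor kinds and 0 to 41 with an age slope. The highest counts came without tumor 5, and for age without tumor 14.

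Replicate numbers do not pair the samples, since the titles give none and those used follow the order within each group. Same-numbered tumors and normal samples had deviations correlated at -0.057, -0.063 and -0.072. With a replicate block, for which the titles give no basis, 3927 genes were called and 172 differed between tumor kinds. Of the 281 named genes, 118 lost their call with Eif2s3y as a covariate, 46 under median scaling, 32 with the block, and 44, 54 and 48 without normal sample 1, 2 and 3. The fit on the 17 compared arrays alone called 3630 genes, and 28 named genes lost their call. Without background correction 18 lost it, on the deposited log2 values 14, and with probes averaged 13. With detection required on 14 or more arrays, 256 of the 281 were tested and kept their call. Probes near background give only bounds. Folds of named genes whose median tumors lay near background are limited in that way too. These include P2ry10, Lta, Dusp4, Rnf144a, Unc13d, Cd180, Gimap7, Pde7a, Itgad, Bcl9 and Cnr2.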
